A study of Homo sapiens with 3 samples.

Results

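The genes described here encode proteins that the liver secretes into plasma: ALB, AFP, the fibrinogen genes FGA, FGB and FGG, the apolipoprotein genes APOA1, APOB and APOE, SERPINA1 and TTR. HDAC1 CUT&Tag summits were taken from 7 fixed hg19 windows, each a gene or gene cluster with a margin of about 10 kb, so that genes in the same window share its values. The windows covered 398 kb and held 18 of the 9476 summits of the control library and 20 of the 11553 summits of the H89 library, 38 in all. They were defined by gene coordinates, although earlier results of these data were known when they were chosen.

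The cells were HepG2, a human hepatocellular carcinoma line titled WT (wild type). The control library came from cells without H89 and the treated library from cells with H89, a compound that inhibits PKA, the protein kinase switched on by cAMP; the sources used here give no dose or duration. HDAC1 is a histone deacetylase that works within corepressor complexes, and CUT&Tag maps a protein by antibody-directed cutting and tagging of the chromatin it sits on. There was 1 HDAC1 library per condition and 1 IgG library from cells without H89, and values of that library are not used here as a background. The sources used here do not say whether the deposited scores were held against the IgG library. The target HDAC1 is given by the series' title and design text, not by the sample labels. Summit lists hold no expression values, so whether these cells expressed the genes was not measured. Read depth is unknown, no difference has a replicate check, and no test of H89 against the control could be made. All intervals are exact 95% intervals and cover counting error only.

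Hepatocytes make most plasma proteins, and HepG2 is widely used because it still secretes many of them. Their genes are driven by liver-enriched factors such as HNF1, HNF4, FOXA and C/EBP proteins, which bind promoters and enhancers near the genes. Several of the genes lie in clusters that arose by duplication and share enhancers. Class I deacetylases such as HDAC1 are found at active as well as silent regulatory DNA. PKA carries hormone signals such as glucagon to liver genes, in part through CREB, which binds the cAMP response element.

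Promoter sequences are shown for 2 genes with a site called in both libraries and 2 genes with none. FGG and SERPINA1 had a summit of higher score in the H89 library near the end from which they are transcribed, and ALB and AFP had none in either library. The RefSeq sequences used here cover 11 promoters of 7 of the 10 genes, on GRCh38.p14, which is another build than that of the summits, so no summit was placed on a base of these sequences. No sequence is shown for APOA1, APOB and TTR. Each sequence is the 250 bases before a start, read in the direction of transcription, and capitals mark GTTAAT on either strand, the core of the element bound by HNF1.
FGG (chr4:154612657-154612906, minus strand): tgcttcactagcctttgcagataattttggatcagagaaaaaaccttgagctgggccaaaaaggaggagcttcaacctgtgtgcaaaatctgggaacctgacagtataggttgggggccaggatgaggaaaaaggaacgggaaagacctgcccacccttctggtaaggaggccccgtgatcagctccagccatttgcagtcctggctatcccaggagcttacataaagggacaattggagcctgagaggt
SERPINA1, downstream start (chr14:94388603-94388852, minus strand): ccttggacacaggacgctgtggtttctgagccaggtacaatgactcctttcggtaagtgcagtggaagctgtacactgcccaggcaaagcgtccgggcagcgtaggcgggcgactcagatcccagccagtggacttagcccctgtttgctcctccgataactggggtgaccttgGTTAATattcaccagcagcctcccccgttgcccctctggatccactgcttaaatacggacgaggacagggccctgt
SERPINA1, upstream start (chr14:94390636-94390885, minus strand): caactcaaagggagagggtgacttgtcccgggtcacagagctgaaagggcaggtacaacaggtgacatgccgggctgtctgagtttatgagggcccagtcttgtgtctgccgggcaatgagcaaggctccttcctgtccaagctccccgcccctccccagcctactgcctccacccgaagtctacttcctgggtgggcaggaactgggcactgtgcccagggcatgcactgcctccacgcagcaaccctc
ALB (chr4:73404037-73404286, plus strand): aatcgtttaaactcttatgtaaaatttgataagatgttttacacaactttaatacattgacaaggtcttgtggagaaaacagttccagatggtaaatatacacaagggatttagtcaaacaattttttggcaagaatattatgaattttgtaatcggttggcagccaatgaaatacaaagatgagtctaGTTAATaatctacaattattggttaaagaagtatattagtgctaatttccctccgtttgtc
AFP (chr4:73435971-73436220, plus strand): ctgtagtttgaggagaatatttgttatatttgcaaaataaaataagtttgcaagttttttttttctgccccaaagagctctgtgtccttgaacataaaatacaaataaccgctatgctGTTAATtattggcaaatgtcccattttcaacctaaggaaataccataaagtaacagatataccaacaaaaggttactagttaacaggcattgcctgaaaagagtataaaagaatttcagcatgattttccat

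The HNF1 core GTTAAT was present in 6 of the 11 promoters, belonging to 5 genes (AFP, ALB, FGA, FGB and SERPINA1), and in 6.23% of all 35116 RefSeq promoters over the same length. Of the 6, 2 are overlapping FGB promoters that share the same match. In SERPINA1 it stood in the downstream of 2 starts, which lie 2.03 kb apart. The cAMP response element core TGACG was in none of the 11 promoters and in 21.2% of all promoters. These 11 promoters belong to only 7 genes, and no difference in share was tested. TATAAA was found in AFP alone, against 10.7% of all promoters. All 3 motifs were searched on both strands, and no match of one overlapped a match of another in these genes. The 250 bases held between 0 and 11 CG dinucleotides, where the median of all promoters was 11. ALB and AFP, whose window had no summit, held 3 and 1. In windows with a summit, FGG and FGA held 2 each, both FGB promoters 0, the SERPINA1 promoters 6 and 11, and the APOE promoters 5, 9 and 11. The number of CG dinucleotides thus did not separate the empty window from the others.

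HDAC1 summits were unevenly spread over these loci. The APOA1 cluster held 8 summits in each library, the APOE cluster 5 in the control and 7 with H89, APOB 2 and 3, SERPINA1 2 and 1, and the fibrinogen cluster 1 in each. The ALB-AFP and TTR windows held none in either library. The 18 control summits amounted to 45.2 per Mb of window and the 20 H89 summits to 50.3, against 2.98 and 3.62 per Mb over the primary chromosomes. Windows around genes are not comparable with whole chromosomes, which include gene-poor and unsequenced stretches. Per control summit there were 1.11 H89 summits in the windows (interval 0.558 to 2.23) and 1.22 over the whole lists (1.19 to 1.25). The windows thus held too few summits to show a departure from the whole. Both intervals treat the lists as separate counts, although 15 sites of the windows were called in both libraries.

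**Figure D1:**
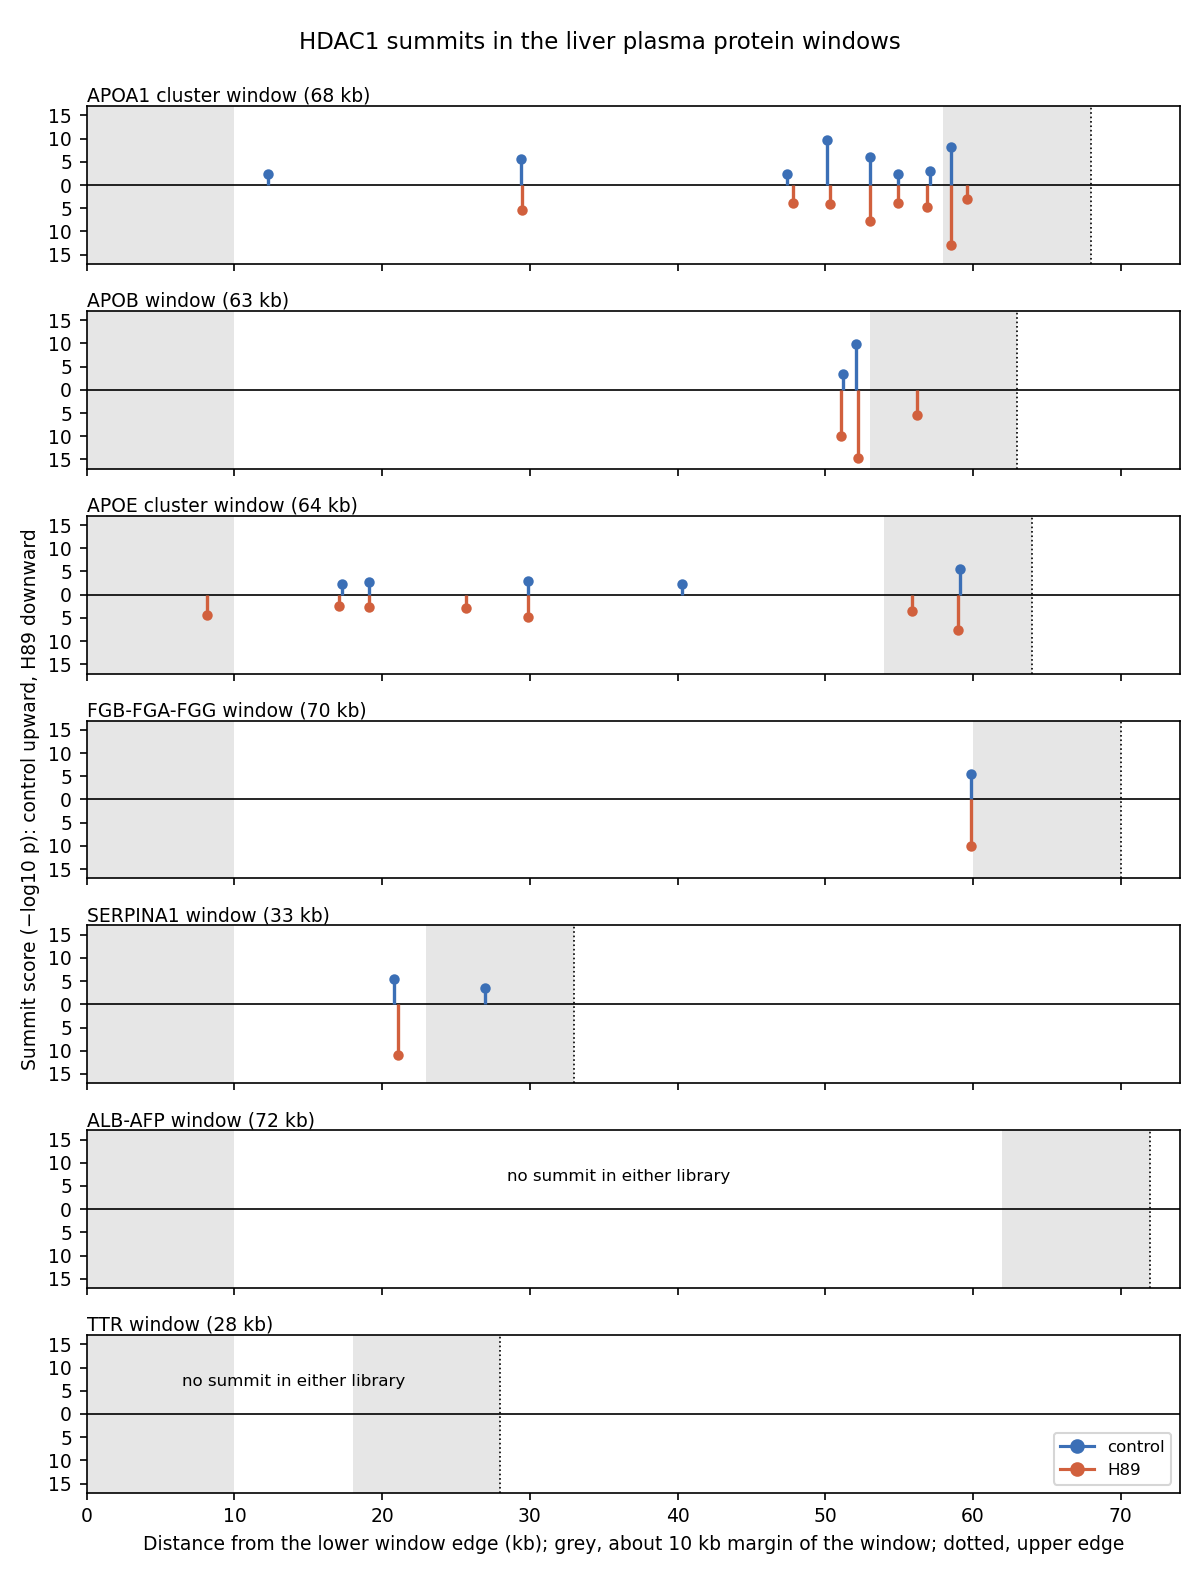
Each panel is 1 window, with the distance from its lower edge in kb on the horizontal axis and the summit score (−log10 p) on the vertical axis, control upward and H89 downward. The APOA1 cluster carries 8 summits in each library, most toward its upper end, while the ALB-AFP and TTR panels are empty.

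The score is read here as the −log10 of a Poisson p-value, and it could be resolved into its parts. Nearly all scores, 99.6% in the control list and 99.7% in the H89 list, equal the tail probability of a whole count at one of 92 expected counts. Steps of this kind with their tolerance cover 0.817% of the score range from 2 to 15 in each list. A summit is thus described by a count and an expected count. This reading rests on the values alone: the count is taken as the signal at the base and the expected count as the background it was held against. The sources used here do not say whether reads or fragments were counted, or whether the count was scaled. All 38 summits of the windows were resolved in this way. Their counts ran from 2 to 8 in the control and from 2 to 10 with H89, and 13 of 18 control summits and 11 of 20 H89 summits rested on 3 or fewer. Over the whole lists 60.9% of control and 56.2% of H89 summits did. A count of 3 has an interval from 0.619 to 8.77, so single summits are weakly measured.

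APOA1 encodes the main protein of high-density lipoprotein, and its cluster also holds APOC3, APOA4 and APOA5, genes of triglyceride and lipoprotein metabolism. This window (chromosome 11, 116650 to 116718 kb) was the richest of the 7. Of all consecutive 68 kb stretches of the primary chromosomes, 0.0154% held 8 or more control summits and 0.0264% held 8 or more H89 summits. These stretches include gene-poor and unsequenced parts, so they are not comparable with windows around genes. The upper 21 kb of the window, the end at which APOA1 lies, held 6 of its control summits and 7 of its H89 summits. The limit of 21 kb only just takes in the lowest of them, 20.6 kb below the upper edge in the control and 20.2 kb with H89. APOC3 is the coding gene next to APOA1 within the cluster, and the summits of this upper end were not assigned to either gene.

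The summit nearest the APOA1 start scored 8.18 in the control, at position 116708477, and 12.9 with H89, at 116708530. The start is placed here at about 116708 kb, the upper window edge less the 10 kb margin, which is good to about 1 kb. Its count was 7 in the control and 10 with H89 at nearly the same expected count, 0.236 and 0.238. The count ratio of 1.43 had an interval from 0.491 to 4.42, so the difference was within counting error.

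A second strong site of the APOA1 cluster went the other way in score but hardly in count. The control summit at 116700079 scored 9.71, the highest of the cluster in that library, and the H89 summit at 116700291, 212 bp away, scored 4.08. Its count was 8 in the control and 7 with H89, whereas the expected count was 0.236 in the control and 1.0 with H89. This was the only one of the 15 site pairs in the windows whose expected count was of a different kind in the libraries, and the only one with a lower score with H89. The score difference was -5.63. The control summit at the APOA1 start, with 7 counts at an expected count of 0.236, scored 8.18, and the H89 summit here, also with 7 counts but at an expected count of 1.0, scored 4.08.

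The other APOA1 cluster sites were weaker. The site at 116702968 in the control scored 6.0 there and 7.83 at 116702992 with H89, with counts of 4 and 5. Pairs of summits at control positions 116697438, 116704910 and 116707116 scored 2.38, 2.38 and 2.97 in the control. Their H89 scores were 3.87, 3.87 and 4.76, on 2 counts in the control and 3 with H89 at each. The site at 116679436 scored 5.50 in the control and 5.49 with H89 and had 3 counts in both. A control summit at 116662321 (score 2.38) and an H89 summit at 116709620 (score 2.96) had no partner within 1000 bp, and each rested on 2 counts.

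APOB encodes the structural protein of low-density and very-low-density lipoproteins, and it alone fills its window (chromosome 2, 21214 to 21277 kb). Its summits stood together at the end of the window where transcription starts, placed at about 21267 kb, and the rest of the gene had none. The nearer site scored 9.94 in the control at 21266149 and 14.7 with H89 at 21266198, the highest score of all 7 windows in each library. It had 5 counts in the control and 7 with H89. The site 0.978 kb further into the gene in the control, at 21265171, scored 3.45 there and 9.92 with H89 at 21265125. That was the largest score difference of the 15 pairs, 6.47, and stood on 2 counts in the control and 5 with H89 (ratio 2.5, interval 0.409 to 26.3). The expected count was the same at both APOB sites, 0.0269 in the control and 0.0271 with H89, the first of the fitted means.

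Upstream of APOB the libraries differed in which summit they listed. An H89 summit at 21270200 scored 5.49 on 3 counts and had no control summit within 1000 bp. The control library listed one at 21279321, 2.32 kb outside the window, with a score of 5.50 and 3 counts.

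APOE encodes the remnant-clearing apolipoprotein, and its cluster (chromosome 19, 45399 to 45463 kb) continues with APOC1, APOC4 and APOC2, which encode small exchangeable apolipoproteins. Its summits scored low. The 5 control summits had a median score of 2.73 and the 7 H89 summits a median of 3.44, against 4.77 and 4.76 over the whole lists. Such a number is uncommon over the genome, gene-poor and unsequenced stretches included. Of consecutive 64 kb stretches, 0.223% held 5 or more control summits and 0.0558% held 7 or more H89 summits. Chromosome 19 is gene-dense and held 11.3 control and 14.0 H89 summits per Mb.

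Around APOE itself, whose start is placed at about 45409 kb, a summit stood 1.84 kb upstream with H89 alone. It lay at 45407164 and scored 4.33 on 4 counts. The nearest control summit, at 45416343, was 7.34 kb downstream of that start and scored 2.38 on 2 counts. The strongest site of the window lay in the margin at its far end, 4.86 kb below the upper edge in the control and 4.98 kb with H89. It scored 5.50 in the control at 45458136 and 7.66 with H89 at 45458018, with counts of 3 and 4. Of the remaining sites, those at control positions 45416343 and 45418055 had the same counts in both libraries, 2 and 3. At 45428898 the count was 2 in the control and 3 with H89. H89 summits at 45424679 and 45454852 and a control summit at 45439342 were unpaired, with 2 counts each. The summit at 45454852 lay in the same margin, 8.15 kb below the upper edge.

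FGA, FGB and FGG encode the chains of fibrinogen, the precursor of the clot protein fibrin, and their cluster (chromosome 4, 155474 to 155544 kb) had a single site. It lay at 155533934 in the control and 155533931 with H89, 3 bp apart, the closest of the 15 pairs. FGG is transcribed from the upper end of the cluster, and its start is placed at about 155534 kb, within 0.0690 kb of both summits, although that placing is good only to about 1 kb. The score was 5.50 in the control and 9.92 with H89, and the count 3 and 5 (ratio 1.67, interval 0.324 to 10.7). No summit lay near FGB, at the other end, for which the nearest was the FGG site 49.9 kb away. Below the window the nearest summit was 1773 kb away in the control and 988 kb with H89, and above it 3548 kb in both.

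SERPINA1 encodes alpha-1-antitrypsin, the inhibitor of neutrophil elastase, in a window on chromosome 14 from 94834 to 94867 kb. Its main site scored 5.51 in the control at 94854826 and 10.9 with H89 at 94855071. The count was 4 in the control and 7 with H89 (ratio 1.75, interval 0.445 to 8.15) at expected counts of 0.0946 and 0.0953. The upper end of the gene, placed at about 94857 kb, lay 2.17 kb from the control summit and 1.93 kb from the H89 summit, on the gene's side. The 2 SERPINA1 starts given above lie 2.03 kb apart, a distance close to these. The downstream start was not placed on this build, so its distance from the site was not measured. A weaker control summit at 94861039 scored 3.45 on 2 counts, upstream of the gene, and had no H89 partner within 1000 bp.

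ALB and AFP encode albumin, the main carrier protein of adult plasma, and alpha-fetoprotein, its fetal relative, and TTR encodes transthyretin, a carrier of thyroid hormone and retinol-binding protein. No HDAC1 summit was listed in either library over the 72 kb of the ALB-AFP window (chromosome 4, 74260 to 74332 kb) or the 28 kb of the TTR window (chromosome 18, 29161 to 29189 kb). Below the ALB-AFP window the nearest summit was 135 kb away in both libraries. Above it, the nearest was 692 kb away in the control and 133 kb with H89. The TTR window had its nearest summits 68.6 kb below in the control and 68.5 kb below with H89, and 334 kb above in both. An empty window is the usual state of the genome, gene-poor and unsequenced stretches included. Of 72 kb stretches, 14.2% held a control summit and 16.2% an H89 summit. For 28 kb stretches the shares were 6.66% and 7.80%. Stretches around genes were not counted apart. A list of calls above a threshold does not show that HDAC1 was absent.

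Ordered by their highest score, the windows ran APOB, APOA1 cluster, SERPINA1, fibrinogen cluster and APOE cluster with H89, with top scores of 14.7, 12.9, 10.9, 9.92 and 7.66. In the control APOB (9.94) and the APOA1 cluster (9.71) were again the highest. SERPINA1 (5.51), the fibrinogen cluster (5.50) and the APOE cluster (5.50) had nearly equal top scores there. By count the first 2 changed places. The top APOB summit had 5 counts in the control and 7 with H89, at expected counts of 0.0269 and 0.0271. The top APOA1 cluster summits of the libraries were different sites. The control top, at 116700079, had 8 counts at an expected count of 0.236. The H89 top, at 116708530, had 10 at 0.238. The APOE cluster tops lay in the margin of that window. The tops of neighbouring windows rested on counts that differed by 3 or less with H89 and by 4 or less in the control. Their intervals overlapped, so this order is not resolved.

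Most sites of these loci were called in both libraries. An H89 summit within 1000 bp was found for 15 of the 18 control summits (83.3%, interval 58.6 to 96.4), where the share over the whole control list was 87.6%. In reverse, a control partner was found for 15 of 20 summits with H89 (75.0%, interval 50.9 to 91.3), against 72.2% over the whole H89 list. Both shares are near those of the whole lists. The 3 control summits without a partner scored from 2.38 to 3.45 and the 5 H89 summits without one from 2.96 to 5.49, and none of these 8 had more than 4 counts. The 15 pairs lay 3 to 331 bp apart, with a median of 53.0 bp, the same as over all pairs.

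Among the sites these loci had in common between the libraries, H89 scores were mostly above control scores. Of the 15 pairs, 11 scored higher with H89 by more than 0.1 (73.3%, interval 44.9 to 92.2), where 50.2% of all 8189 pairs did. The 1 pair that scored lower, in the APOA1 cluster, made 6.67%, where 14.5% of all pairs did. Another 3 were within 0.1. The interval of the share includes the share of all pairs. The median score difference was 1.79 in the windows and 0.20 over all pairs. In counts, the median difference was 1.0 in the windows and also 1.0 over all pairs resolved in both lists. Among pairs with the same kind of expected count it was 1.0 in the windows and 0 over all. A score difference above 1 can thus stand for a single count. With H89, 3 summits of the windows scored 10 or more (APOB, the APOA1 start and SERPINA1), 15% of the 20 against 9.89% of the whole list. In the control none of 18 did, against 6.49%. Control summits at APOB (9.94) and in the APOA1 cluster (9.71) lay just below that limit. So did H89 summits at APOB and in the fibrinogen cluster (9.92 each).

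**Figure D2:**
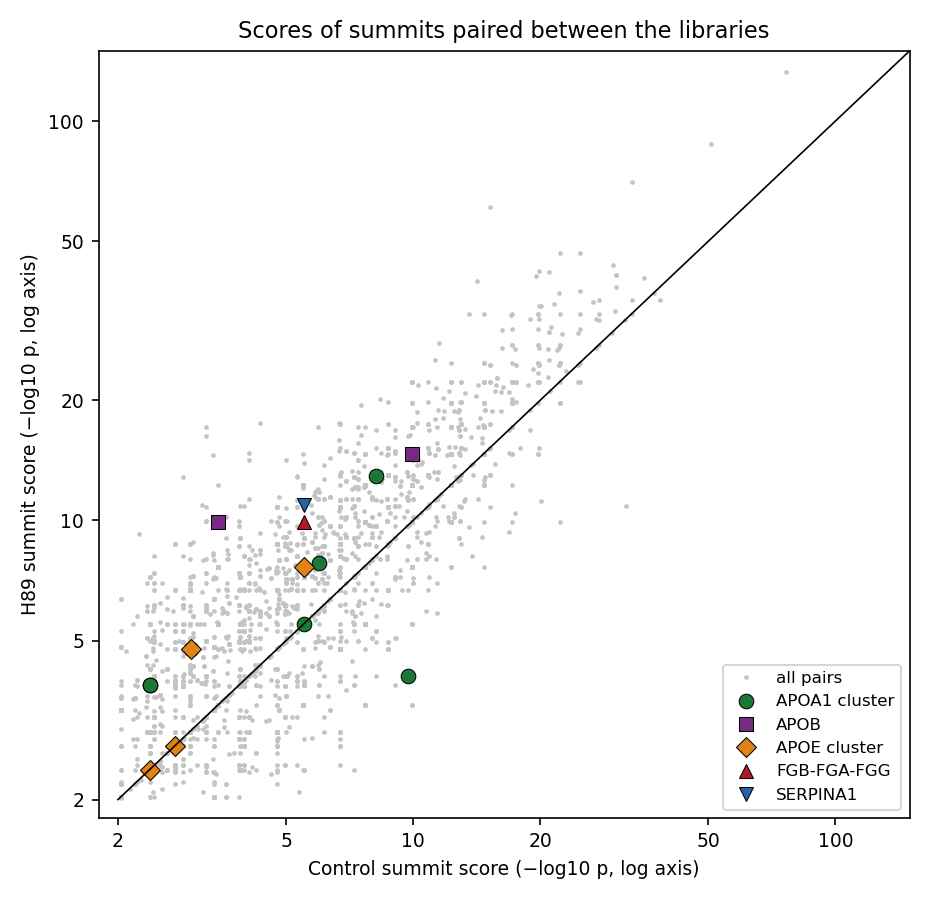
Scores of paired summits (−log10 p, log axes), control on the horizontal and H89 on the vertical axis, with all pairs in grey, the pairs of the windows as coloured symbols and the line of equal scores. Of the 15 coloured pairs, 11 lie above the line, and the APOA1 cluster pair at 9.71 and 4.08 lies below it; some symbols overlie each other because their scores are equal.

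In counts the same 11 pairs were higher with H89 (73.3%, where 50.6% of the 8085 pairs resolved in both lists were), 3 were equal and 1 was lower (6.67%, where 12.1% were). Summed over the 15 pairs there were 52 counts in the control and 70 with H89, a ratio of 1.35 (interval 0.927 to 1.97). Over all resolved pairs the ratio was 1.17 (1.15 to 1.19), which lies within the interval of the windows. No pair of the windows had a count ratio whose interval excluded 1. In the 14 pairs with the same kind of expected count the ratio was 1.43 (0.959 to 2.15). Sequencing depth, tagging efficiency and HDAC1 occupancy all enter these counts and cannot be told apart with 1 library per condition.

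**Figure D3:**
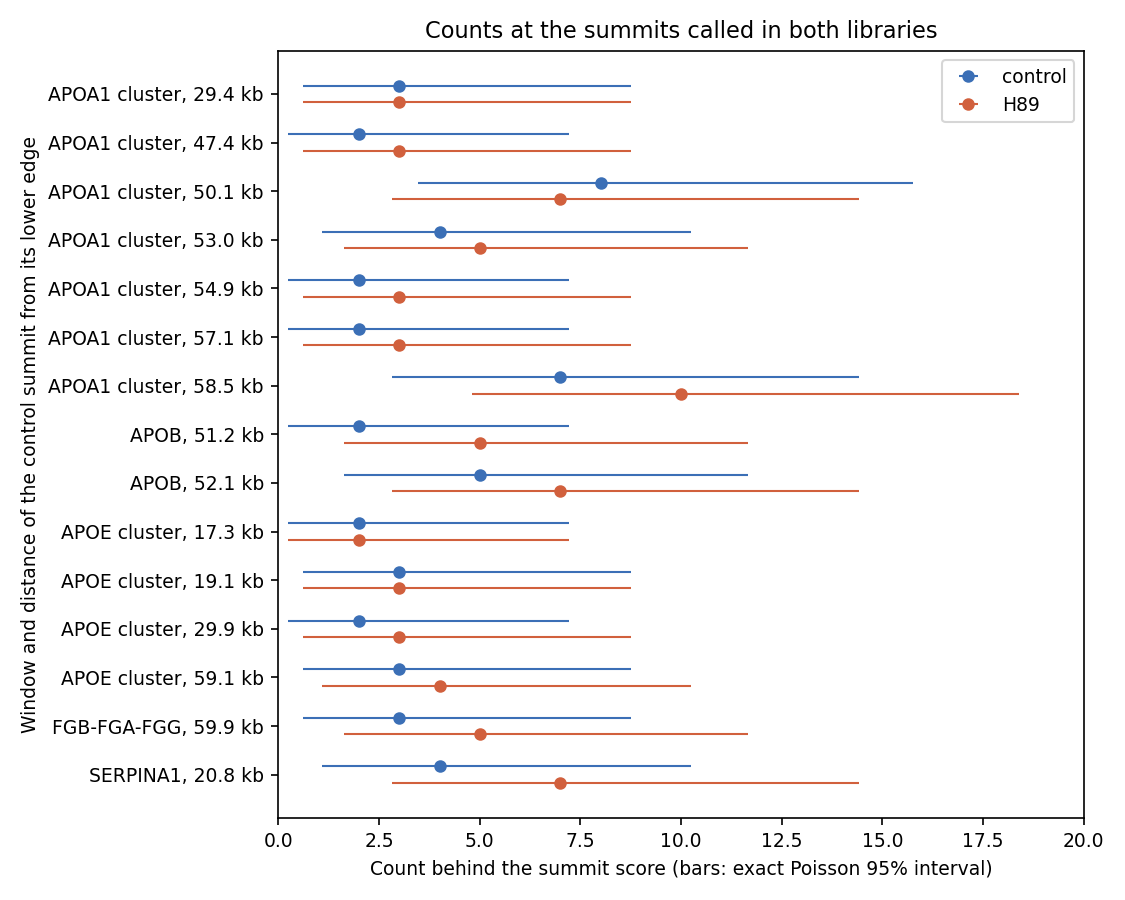
Counts behind the scores of the 15 paired summits, control and H89, on the horizontal axis, with exact Poisson 95% intervals as bars; each row is 1 site, named by its window and its distance from the lower window edge in kb. The H89 count is higher in 11 rows, by 1 to 3 counts, and the bars overlap in every row.

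Summits within 20 kb outside a window were found at 4 of the 7 windows, among them the control summit beyond APOB given above. Below the APOE window, a summit 4.89 kb outside in the control and 4.92 kb outside with H89 scored 7.29 in both libraries, with a count of 19 against an expected count of 4.0, the highest count in the windows or within 20 kb of them. Below the SERPINA1 window the nearest scored 7.67 in the control and 5.49 with H89, with 4 and 3 counts. Below the APOA1 window the nearest scored 2.04 and 3.36, with 2 and 3 counts.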

How the data were processed

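HDAC1 CUT&Tag libraries of HepG2 cells without and with H89 were used, 1 each. The build hg19 and the tool Bowtie 0.12.2 are listed, with no role, in the submitters' processing notes. The authors deposited, for each library, a list of 1-bp peak summits with a score, read from its values as a −log10 p-value without adjustment. The sources used here name no peak caller, control or threshold. Lists were matched to samples by their peak names.

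Summits inside the windows were kept, 1-based. Partners are summits within 1000 bp, pairs are mutually nearest ones, and score differences up to 0.1 count as equal. Scores were resolved into a whole count and an expected Poisson count: a first mean fitted to the commonest score from 5 to 6 (0.0269 control, 0.0271 H89), multiples of 1 or more of a second (0.0473, 0.0477) in steps of 0.5, or whole numbers, within 3e-05 (within rounding above a score of 6). All 10 genes and every summit in a window are named. Members, windows and lists were chosen with earlier results of these data known, and the resolving of scores was added after seeing the data. Gene starts were placed from the windows and the strand. The planned list of other secreted protein genes was not run, since the gene table is on GRCh38.p14. Intervals are Clopper-Pearson, or exact Poisson for single counts. Functions were tested on simulated data. Work was done in Python 3.11.15 (scipy 1.17.1, numpy 2.4.6, matplotlib 3.10.9, pandas 2.3.3).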

Additional observations from a re-analysis of the deposited data

How the results depend on the processing

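The H89 to control ratio of summits in the windows was 1.11, and from 0.933 to 1.20 over its alternatives: windows wider (1.05) or narrower (0.933) by 10 kb on both sides, a score minimum of 5 (1.12), merging within 500 bp, and leaving out each window in turn (1.0 to 1.20). Its direction is thus not fixed. The share of control summits with a partner was 83.3% within 500, 1000 and 2000 bp and 0 when the identical base was required, because paired summits lay 3 bp or more apart. The share of pairs higher with H89 stayed at 73.3% with a tie limit of 0.5 and within 500 bp. Without the APOA1 cluster, an alternative added after seeing the data, the count ratio was 1.50. No paired analysis was possible because each arm is a single library.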
